A study of Homo sapiens with 10 samples.

Results

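The cadherins and protocadherins of H1, an established human embryonic stem cell line, were followed through 4 knockdowns. Members were the gene rows whose name starts with CDH and a digit or with PCDH, and 69 of the 13808 gene rows of the table met this rule. They comprised 4 type I cadherins, 6 type II cadherins, 3 other cadherins, 8 non-clustered protocadherins and 48 clustered protocadherins, the last in an alpha cluster of 15 rows, a beta cluster of 11 and a gamma cluster of 22. GENCODE release 29 lists 89 protein-coding genes with such names, and the other 20, among them CDH5, CDH10, PCDH8, PCDH17 and PCDHB1, were not analysed here. All 69 members passed the filter on low values.

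All groups were wild-type H1 cells that received a packaged short hairpin RNA (shRNA) virus and were then selected with puromycin, controls included. The control group carried an shRNA against luciferase (shLUC), for which human cells have no target. The 4 knockdown groups carried an shRNA against SMARCA4 (a chromatin remodelling ATPase), MAFK (a small MAF transcription factor), E2F6 (a repressive E2F factor) or KDM1A (a histone demethylase). Each group had 2 RNA-seq libraries, 10 in all, from 1 cell line, and the harvest time and the number of hairpins per target are not given in the sources used here. The labels do not say that the 2 libraries of a group came from separate cultures, so the p-values below measure only the spread between these libraries.

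Cadherins are calcium-dependent adhesion proteins of the cell surface. Type I cadherins such as E-cadherin bind each other across cell contacts and hold beta-catenin, alpha-catenin and p120-catenin on their inner side, and E-cadherin holds colonies of pluripotent cells together. Type II cadherins are often expressed in more restricted cell populations, CDH13 is anchored by a lipid and lacks the catenin-binding tail, and CDH23 is part of the tip links of hair cells. Non-clustered protocadherins are encoded at scattered sites. Clustered protocadherins are best known as recognition labels of neurons, where each cell uses its own choice of promoters. In the alpha and gamma clusters each variable first exon has its own promoter and is spliced to constant exons shared by the cluster, whereas beta genes have no constant exons.

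The values were normalized tag counts that the authors deposited as whole numbers, with totals between 22836548 and 22855295 per library. The normalization set these totals, so the read depth is unknown and no counting interval can be given. Identical values recur between libraries because 80.3% of ranks hold the same value in every library. The SD between replicates over all rows was 0.264 to 0.335 on the log2 scale in 4 groups and 0.53 in shKDM1A, which therefore stood apart. SMARCA4 itself was at 12.7% of its shLUC mean in shSMARCA4 (limma, Benjamini-Hochberg adjusted p = 8.55e-05). The other targets did not pass the threshold: KDM1A was at 42.1% (adjusted p = 0.132), E2F6 at 61.3% (adjusted p = 0.774) and MAFK at 59.6% (adjusted p = 0.572), with 1 shMAFK library inside the range of the controls for MAFK. The label of pluripotent cells was checked with 10 markers, of which 9 were in the table, and their summed value was 125566 to 132970 in shLUC. In bulk RNA, fewer cells of a type and less RNA per cell cannot be told apart.

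The clusters lie on chromosome 5 of GRCh38 (plus strand), the alpha rows at chr5:140786136-141012347, the beta rows at chr5:141094578-141249365 and the gamma rows at chr5:141330571-141512981, 727 kb in all. The first constant coding exon of each of 2 clusters is shown because it is part of every row of its cluster. Reads that lie within constant exons alone cannot be assigned to 1 row. The alpha exon (chr5:140978949-140979007, GRCh38) is annotated in all 15 alpha genes, and the gamma exon (chr5:141494807-141494865) in all 22 gamma genes. Both are in lower case throughout.
alpha constant exon 1: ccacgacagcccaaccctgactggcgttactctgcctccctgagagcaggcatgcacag
gamma constant exon 1: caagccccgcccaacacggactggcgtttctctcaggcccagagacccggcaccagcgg
The constant coding part of 3 exons came to 456 bases in the alpha cluster and 372 in the gamma cluster. With untranslated parts and neighbouring first exons counted, a median of 46.5% of an alpha row's exon bases (19.2% to 56.6%) lay in exons of other genes, and each alpha row shared with the 14 others. In the gamma cluster the median was 43.9% (27.6% to 64.4%), and each row shared with 21 others. Beta rows shared 0% to 9.43%. How the authors' counting treated shared bases is not given in the sources used here.

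Promoter stretches are shown because each variable row has its own start site. RefSeq promoters (GRCh38.p14, 250 bases before to 50 after the start) were found for 13 of 15 alpha, 11 of 11 beta and 20 of 22 gamma members. Both strands were searched for the word of 8 letters held by the most promoters of each cluster. Words tied in each cluster (4 alpha, 4 beta and 2 gamma). The word given was found most often on the listed strand and, after that, was the rarest among all promoters. The words were thus picked from these same promoters and partly for rarity, so the shares below are a description and not a test. The alpha word ATGTCGCT was in 9 of 13 promoters and in 0.234% of all 35116 promoters of the table. The beta word GTGGCGCT was in 11 of 11, against 1.15% of all promoters, and the gamma word GCCGCTGT was in 11 of 20, against 1.63%. All 3 words hold the letters CGCT. The words started 85 to 42 bases before the start site in the alpha cluster, 83 to 15 in the beta cluster and 97 to 42 in the gamma cluster. Each line gives 40 bases of the plus strand with the word in capitals, for members named in the results below.
PCDHA8 (chr5:140841126-140841165): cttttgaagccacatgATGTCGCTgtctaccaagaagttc
PCDHA10 (chr5:140855837-140855876): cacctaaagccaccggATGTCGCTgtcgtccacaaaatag
PCDHB3 (chr5:141100389-141100428): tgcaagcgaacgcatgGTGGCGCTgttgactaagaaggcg
PCDHB5 (chr5:141135175-141135214): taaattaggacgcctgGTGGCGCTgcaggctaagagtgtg
PCDHB16 (chr5:141182306-141182345): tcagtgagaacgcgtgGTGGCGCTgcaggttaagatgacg
PCDHB15 (chr5:141245310-141245349): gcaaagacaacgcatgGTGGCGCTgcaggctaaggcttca
PCDHGB4 (chr5:141387615-141387654): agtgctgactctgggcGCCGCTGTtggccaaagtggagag
PCDHGA8 (chr5:141392566-141392605): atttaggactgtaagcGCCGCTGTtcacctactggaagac
PCDHGB6 (chr5:141407922-141407961): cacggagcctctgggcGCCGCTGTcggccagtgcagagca
A match is a run of letters, not a bound site.

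Levels differed widely between members. Per kb of exon and averaged over the 10 libraries, E-cadherin (CDH1) was highest with 1209 normalized tags, followed by P-cadherin (CDH3) with 645 and PCDH1 with 626, a protocadherin also found in airway epithelium. The division by annotated exon length assumes values not already corrected for length, which is not known. Without it the same rows led in the same order, with means of 7468, 4025 and 3693. N-cadherin (CDH2) had 195 normalized tags per kb, PCDH18 had 139 and CDH24 had 126. PCDH10 stood at 54.7 and CDH4, or R-cadherin, at 38.6 on the same scale. The lowest level was that of CDH23, with 3.65 normalized tags per kb, and 18.9% of its exon bases lie opposite exons of C10orf105. Whether the authors counted reads by strand is not given in the sources used here.

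**Figure D1:**
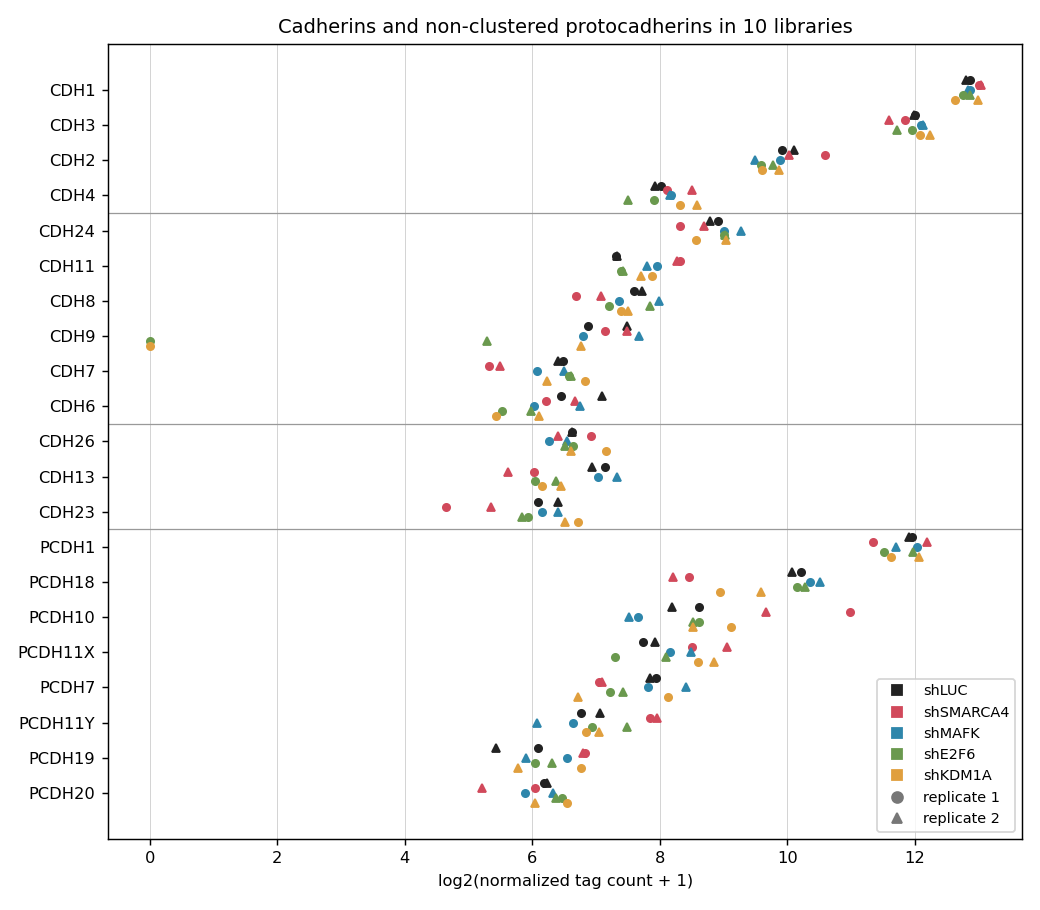
Normalized tag counts of the 21 members outside the clusters, as log2(value + 1) on the horizontal axis, with 1 symbol per library (circles for replicate 1, triangles for replicate 2) and horizontal lines between the classes. The symbols of CDH1, CDH3 and CDH2 lie close together, the red symbols of PCDH18 lie left of the others, those of PCDH10 and CDH11 lie right, and CDH9 is listed at 0 in 2 libraries.

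The 3 classical cadherins with the highest levels did not pass the test in any knockdown. CDH1 (chr16:68737225-68835548) had 7440 and 7097 normalized tags in the shLUC libraries, 8220 and 8374 in shSMARCA4, 6343 and 8086 in shKDM1A, 7440 and 7313 in shMAFK, and 6928 and 7440 in shE2F6. Both shSMARCA4 libraries lay above both controls, and the 2 shKDM1A libraries were the farthest apart. The log2 change of CDH1 in shSMARCA4 was 0.19, with a 95% interval from -0.14 to 0.53 (limma, adjusted p = 0.616). In the other knockdowns the change of CDH1 was between -0.02 and 0.02 on the log2 scale, and the intervals together ran from -0.36 to 0.36.

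CDH3, whose gene ends 14.6 kb before CDH1 on chromosome 16, had 4092 and 4065 normalized tags in shLUC, 3673 and 3093 in shSMARCA4, 4309 and 4808 in shKDM1A, 4390 and 4486 in shMAFK, and 3966 and 3366 in shE2F6. Both libraries lay below the controls in shSMARCA4 and shE2F6 and above them in shMAFK and shKDM1A. The largest of these changes was -0.27 on the log2 scale in shSMARCA4, with a 95% interval from -0.63 to 0.08 (limma, adjusted p = 0.451). An antisense gene overlaps 11.1% of the exon bases of CDH3.

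CDH2 (chr18:27950966-28177446) had 960 and 1098 normalized tags in shLUC, 1543 and 1043 in shSMARCA4, 778 and 934 in shKDM1A, 938 and 718 in shMAFK, and 771 and 874 in shE2F6. It was below both controls in 6 of 6 libraries of the last 3 knockdowns, by 0.27 in shKDM1A and 0.32 in each of shMAFK and shE2F6 on the log2 scale, and these differences did not pass the threshold (limma, adjusted p = 0.612, 0.802 and 1). In shSMARCA4 its change was 0.30, with a 95% interval from -0.20 to 0.81, and replicate 2 lay between the controls. The comparisons share the 2 shLUC libraries.

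In shSMARCA4, 4 of 69 members passed the threshold of an adjusted p of 0.05, beside 4.18% of the 14785 rows tested. PCDH10 and CDH11 were higher, beside 1.67% of all rows called higher, and PCDH18 and CDH13 were lower, beside 2.51% called lower. All 4 are outside the clusters. At an unadjusted p under 0.05 there were 14 of 69 members, beside 16.3% of all rows, and 10 of them were among the 21 members outside the clusters. The absolute log2 change had a median of 0.77 over those 21 members, 0.13 over the 48 clustered members and 0.21 over all rows. Members with both libraries above both controls numbered 22 of 69 (25.6% of all rows), and 14 of 69 had both below (25.4% of all rows).

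PCDH18 (chr4:137518918-137532494), a non-clustered protocadherin, had 1184 and 1080 normalized tags in shLUC, 352 and 294 in shSMARCA4, 490 and 771 in shKDM1A, 1304 and 1458 in shMAFK, and 1140 and 1234 in shE2F6. The shSMARCA4 libraries were the lowest of the 10, the shKDM1A libraries came next, and the other 3 groups did not reach down to either. The mean in shSMARCA4 was 323 ± 41.0, against 1132 ± 73.5 in shLUC (SD, n = 2), or 28.5%. PCDH18 fell by 1.81 on the log2 scale (SE 0.22; limma, adjusted p = 0.0032), and it stayed past the threshold in 20 of 20 alternative settings. In shKDM1A its log2 change was -0.88 (SE 0.22), which did not pass (limma, adjusted p = 0.255).

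PCDH10 (chr4:133149315-133208606), a protocadherin known for its part in axon growth and the link to actin, lies 4.31 Mb from PCDH18 on the same chromosome. It had 392 and 292 normalized tags in shLUC, 2011 and 806 in shSMARCA4, 553 and 366 in shKDM1A, 200 and 181 in shMAFK, and 389 and 364 in shE2F6. The shSMARCA4 libraries were the highest of the 10 but differed strongly from each other, and the shMAFK libraries were the lowest. PCDH10 rose by 1.91 on the log2 scale in shSMARCA4 (SE 0.38; limma, adjusted p = 0.0259), to a mean of 1408.5 ± 852 against 342 ± 70.7 (SD, n = 2). It passed in 15 of 20 alternative settings and lost the call without either shLUC or either shMAFK library and without shSMARCA4 replicate 1 (limma, adjusted p up to 0.209). The change was 1.25 without shSMARCA4 replicate 1 and 2.57 without replicate 2. In shMAFK the change of -0.83 was the most negative of any member there and did not pass (limma, adjusted p = 0.593).

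CDH11, or OB-cadherin, is a type II cadherin of mesenchymal cells and lies at chr16:64943753-65126112. It had 158 and 160 normalized tags in shLUC, 318 and 306 in shSMARCA4, 234 and 208 in shKDM1A, 246 and 222 in shMAFK, and 166 and 170 in shE2F6. Every knockdown library lay above both controls, those of shE2F6 by the least. The rise in shSMARCA4 was 0.97 on the log2 scale (SE 0.16; limma, adjusted p = 0.0123), to 196% of the shLUC mean. The changes of 0.55 in shMAFK and 0.47 in shKDM1A had unadjusted p of 0.0068 and 0.0157 and did not pass (limma, adjusted p = 0.308 and 0.371). Leaving out either library of shLUC or of shSMARCA4 took the adjusted p in shSMARCA4 to between 0.0726 and 0.112.

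CDH13, the lipid-anchored T-cadherin at chr16:82626803-83800640, had 140 and 122 normalized tags in shLUC, 64 and 48 in shSMARCA4, 70 and 86 in shKDM1A, 129 and 160 in shMAFK, and 65 and 82 in shE2F6. The libraries of shSMARCA4, shE2F6 and shKDM1A all lay below both controls, and those of shMAFK did not. CDH13 fell by 1.22 on the log2 scale in shSMARCA4 (SE 0.28; limma, adjusted p = 0.0437), to 42.7% of the shLUC mean. It passed in 10 of 19 alternative settings and lost the call without any 1 library of shLUC, shSMARCA4, shMAFK or shE2F6, with adjusted p up to 0.276 (limma). In shE2F6 and shKDM1A the changes were -0.83 and -0.74 and did not pass (limma, adjusted p = 0.885 and 0.399).

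**Figure D2:**
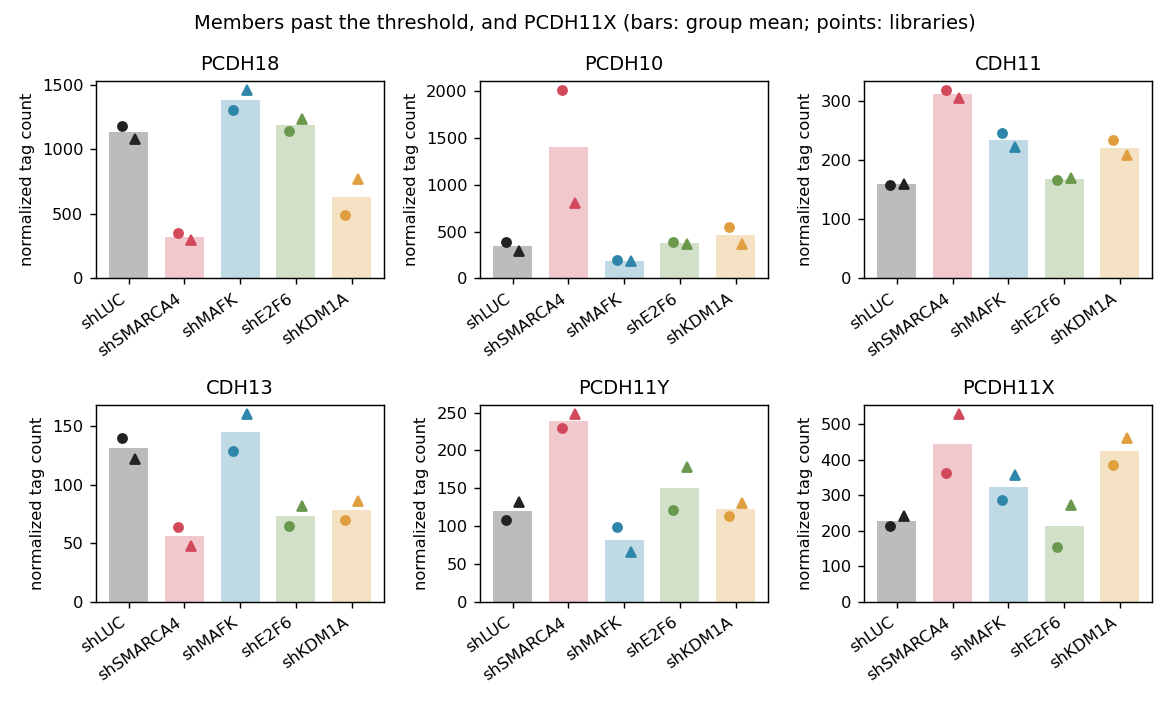
Normalized tag counts (vertical axes start at 0) of the 5 members past the threshold in a knockdown comparison or in the test among knockdowns, and of PCDH11X, by group. Bars are means of 2 libraries, circles are replicate 1 and triangles replicate 2, and the points show that the 2 shSMARCA4 libraries of PCDH10 (2011 and 806) are far apart while those of CDH11 (318 and 306) are close.

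Markers of other cell types moved in shSMARCA4 as well. Of 13 mesendoderm markers 4 were in the table (MIXL1, EOMES, CER1 and FOXA2), and their summed value was 71 to 82 in shLUC, 1198 to 7385 in shSMARCA4, 15 to 19 in shMAFK, 64 to 119 in shE2F6 and 34 to 80 in shKDM1A. MIXL1 had 1809 and 132 normalized tags in the 2 shSMARCA4 libraries, and passed (limma, adjusted p = 0.0365). PCDH10 was higher in the library in which these markers were higher (2011 against 806), while CDH11 (318 and 306) and PCDH18 (352 and 294) differed little between the 2 libraries. The 2 trophoblast markers in the table, of 10, summed to 278 to 355 in shLUC, 80 to 86 in shSMARCA4, 172 to 226 in shE2F6 and 225 to 376 in shKDM1A, and KRT7 fell in shSMARCA4 (limma, adjusted p = 0.0046). Of 12 neural markers 7 were in the table, with sums of 11072 to 12224 in shLUC, 7769 to 10319 in shSMARCA4 and 8234 to 12612 in shKDM1A. In shSMARCA4 their median log2 change was 0.18 although the sums were lower. There 3 of 7 had both libraries above both controls, beside 25.6% of all rows, and 2 had both below, beside 25.4%. In shKDM1A the median was -0.94 although the sums overlapped the controls. ZIC1 rose in shSMARCA4 (limma, adjusted p = 0.0147). The 9 pluripotency markers summed to 104147 to 128536 in shSMARCA4, and 0 of 9 passed in limma, beside 4.18% of all rows. At an unadjusted p under 0.05 there were 4 of 9, beside 16.3% of all rows. There 5 of 9 had both libraries below both controls and 1 had both above, with a median log2 change of -0.24. In shKDM1A these markers summed to 131193 to 229173, although their median log2 change was -0.16 and 0 of 9 had both libraries above both controls. The part of these cell types in the changes of the 4 members was not tested.

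Among the other members outside the clusters, several had large changes in shSMARCA4 that missed the threshold. CDH23 was at 24 and 40 normalized tags against 67 and 84 in shLUC (log2 change -1.25; limma, adjusted p = 0.0905), and CDH7 at 39 and 44 against 88 and 84 (-1.04; adjusted p = 0.112). CDH8, 2.91 Mb from CDH11, had a log2 change of -0.77 (limma, adjusted p = 0.197). PCDH7 was at 131 and 136 against 244 and 228 (-0.82; limma, adjusted p = 0.357), and PCDH19, a gene of a female-limited epilepsy, had a log2 change of 1.06 (limma, adjusted p = 0.227). In each of these the 2 shSMARCA4 libraries lay on the same side of both controls. PCDH1, the non-clustered member with the highest level, had 3966 and 3850 normalized tags in shLUC, 2594 and 4646 in shSMARCA4, 3168 and 4261 in shKDM1A, 4196 and 3314 in shMAFK, and 2934 and 4003 in shE2F6. Its 2 libraries lay far apart in every knockdown, and its log2 changes were between -0.19 and -0.07.

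PCDH11X and PCDH11Y are a pair of protocadherin genes of nearly the same sequence on chromosomes X and Y. In the annotated transcripts, 56.1% of the 50-base words of each occur in the other, so reads may be split between them and both rows are uncertain. PCDH11X had 213 and 242 normalized tags in shLUC, 362 and 528 in shSMARCA4, 386 and 462 in shKDM1A, 286 and 358 in shMAFK, and 156 and 274 in shE2F6. PCDH11Y had 108 and 132 in shLUC, 230 and 248 in shSMARCA4, 114 and 131 in shKDM1A, 99 and 66 in shMAFK, and 122 and 178 in shE2F6. Both were above the controls in shSMARCA4, by 0.94 for PCDH11X (limma, adjusted p = 0.12) and 0.99 for PCDH11Y (limma, adjusted p = 0.0881). In shMAFK the libraries of PCDH11X lay above the controls and those of PCDH11Y below. In shKDM1A the log2 change was 0.89 for PCDH11X (limma, adjusted p = 0.345), the most positive change of a member there, and 0.03 for PCDH11Y.

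Differences among the 4 knockdowns, tested without the control mean, passed for 4 of 69 members, beside 6.64% of all rows. These were PCDH18 (limma F-test, adjusted p = 0.0029), PCDH10 (0.015), PCDH11Y (0.0389) and CDH11 (0.0429). PCDH11Y had its highest values in shSMARCA4 and its lowest in shMAFK. The calls of PCDH11Y and CDH11 were lost without any 1 library of shLUC, shSMARCA4, shMAFK or shE2F6 and with the replicate number as a block, and that of PCDH10 without either shMAFK library. The next members were PCDHB16 with an adjusted p of 0.0526 and CDH13 with 0.0625.

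The type II member CDH9 was listed at 0 in 2 libraries. It had 116 and 178 normalized tags in shLUC, 140 and 178 in shSMARCA4, 0 and 108 in shKDM1A, 110 and 202 in shMAFK, and 0 and 38 in shE2F6. All 4 libraries of shE2F6 and shKDM1A were below both controls, and the fitted log2 changes of -4.53 and -3.79 depend on the pseudocount because of the zeros. Neither passed (limma, adjusted p = 0.977 and 0.483). CDH6 was at 45 and 62 in shE2F6 (log2 change -1.02; limma, adjusted p = 0.949) and at 42 and 68 in shKDM1A (adjusted p = 0.407), against 86 and 136 in shLUC. No cause of the zeros was tested.

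In shMAFK, 0 of 69 members passed with limma, beside 0.0135% of all rows, which is 2 rows. At an unadjusted p under 0.05 there were 18 members, beside 8.77% of all rows, and 17 of the 18 were gamma protocadherins with lower values. All 22 gamma rows had both shMAFK libraries below both shLUC libraries, beside 25.3% of all rows. Their log2 changes lay between -0.57 (PCDHGC3) and -0.32 (PCDHGB4), with a median of -0.44. The summed gamma value was 15470 and 14906 in shMAFK and 21455 and 19783 in shLUC. The shMAFK sums were the lowest of the 10 libraries, the next being 17236 in shKDM1A replicate 1. The mean in shMAFK was 15188 ± 399 against 20619 ± 1182 in shLUC (SD, n = 2), or 73.7%. The gamma rows share constant exons, so they are not 22 separate measurements, and their part from variable and from constant exons cannot be told apart in this table. With 1 weight per group, limma called PCDHGA3, PCDHGC4 and PCDHGC5 lower and CDH11 higher, beside 3.29% of all rows. In shMAFK the summed neural markers (7567 to 10741) and mesendoderm markers (15 to 19) lay below both controls, and the summed trophoblast markers (402 to 439) above them. Of 7 neural markers 2 had both libraries below both controls, beside 25.3% of all rows, and 0 had both above. All 4 mesendoderm markers had both below, but at low values, with 1 of them at 0 in both libraries. Of 2 trophoblast markers 1 had both above, beside 3521 of 14785 rows. The part of these markers in the gamma values was not tested.

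PCDHGB4, PCDHGB6 and PCDHGA8 had the highest values of the clustered members. PCDHGB4 had 1283 and 1168 normalized tags in shLUC, 1100 and 1436 in shSMARCA4, 1155 and 1264 in shKDM1A, 1026 and 938 in shMAFK, and 1146 and 1378 in shE2F6. PCDHGB6 had 1278 and 1166 in shLUC, 1046 and 1388 in shSMARCA4, 1178 and 1278 in shKDM1A, 896 and 846 in shMAFK, and 1087 and 1353 in shE2F6. PCDHGA8 had 1174 and 1095 in shLUC, 1007 and 1374 in shSMARCA4, 1040 and 1186 in shKDM1A, 884 and 861 in shMAFK, and 1034 and 1270 in shE2F6. In all 3 rows the shMAFK libraries were the 2 lowest, and in shSMARCA4, shE2F6 and shKDM1A the same library was the higher one in all 3 rows. The log2 change in shMAFK was -0.32 for PCDHGB4 and -0.49 for PCDHGB6 (limma, adjusted p = 0.48 for PCDHGB6). In the test among knockdowns no gamma row passed, the smallest adjusted p being 0.246 for PCDHGA7 (limma F-test). The gamma sums were 98.3% of shLUC in shSMARCA4, 94.7% in shE2F6 and 93.8% in shKDM1A, all within 1 SD of their own 2 libraries.

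**Figure D3:**
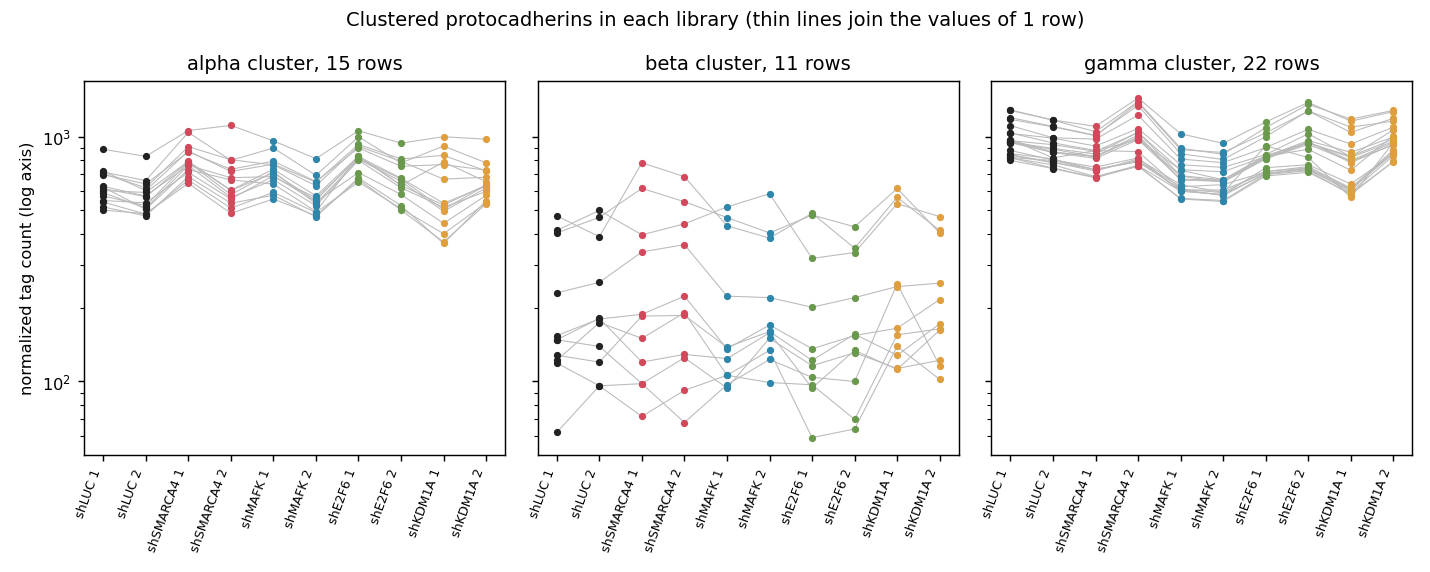
Normalized tag counts (log axis) of each clustered protocadherin in each of the 10 libraries, with 1 point per row and thin lines that join a row's values. The summed gamma values are lowest in the 2 shMAFK libraries (15470 and 14906), the alpha rows spread most in shKDM1A replicate 1, and the lines of the beta rows cross.

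The alpha rows had higher values than the controls in shE2F6 and shSMARCA4, without passing the test. In shE2F6 the log2 changes of all 15 were above 0, with a median of 0.30, and 13 of 15 had both libraries above both controls, beside 20.3% of all rows. Their sum was 12410 and 10075 in shE2F6 against 9457 and 8595 in shLUC, a mean of 11242.5 ± 1651 against 9026 ± 610 (SD, n = 2). In shSMARCA4 the changes were above 0 in 15 of 15 rows, with a median of 0.26, and 10 had both libraries above both controls, beside 25.6% of all rows. There the sums were 12077 and 9947. In shE2F6 and shSMARCA4 replicate 1 had the higher alpha sum, as in shLUC. Over all rows, same-numbered libraries of these 2 knockdowns deviated together with r of 0.337. Both comparisons also share the shLUC libraries, so the 2 alpha rises are not independent. The alpha rows share constant exons, so they are not 15 separate measurements, unlike most of the rows behind the shares of all rows. Reads from shared exons may enter the alpha and gamma sums more than once, since the counting is not given. Without replicate 1 of the knockdown, the log2 ratio of the alpha sum to shLUC went from 0.32 to 0.16 in shE2F6 and from 0.29 to 0.14 in shSMARCA4. In shE2F6 the 7 neural markers summed to 11650 to 14105 and had a median log2 change of -0.86, and their part in the alpha values was not tested. No alpha row passed with limma in any comparison. The smallest unadjusted p of an alpha row was 0.0503 in shSMARCA4 and 0.0547 in shE2F6, both for PCDHAC1. In shE2F6, 0 of 69 members passed with limma, beside 0% of all rows, and 4 had an unadjusted p under 0.05, beside 5.09% of all rows. Those 4 were PCDHB9, PCDHB15, CDH13 and CDH6, all lower.

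PCDHA9 and PCDH19 had the most positive log2 changes of the members in shE2F6, both 0.42. PCDHA9 had 621 and 505 normalized tags in shLUC, 733 and 665 in shSMARCA4, 534 and 628 in shKDM1A, 640 and 494 in shMAFK, and 828 and 676 in shE2F6. The shE2F6 and shSMARCA4 libraries lay above both controls, while shMAFK and shKDM1A overlapped them. Its change in shE2F6 did not pass (limma, adjusted p = 0.987).

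In shKDM1A replicate 1 the alpha rows came apart. Their values ran from 366 (PCDHA8) to 998 (PCDHA10), while in the shLUC libraries they ran from 501 to 887 and from 474 to 830. In that library PCDHA10, PCDHA11, PCDHA4, PCDHA12 and PCDHA3 had 998, 914, 838, 787 and 768 normalized tags, each above both controls. PCDHA8, PCDHA13, PCDHA1 and PCDHA2 had 366, 371, 401 and 442 there, each below both controls. PCDHAC2, PCDHA5 and PCDHA6, with 495, 504 and 525, were below both controls as well. PCDHAC1, PCDHA9 and PCDHA7 lay between the controls. In shKDM1A replicate 2 the rows ran from 531 to 975, with PCDHA13 lowest and PCDHA10 highest. The alpha rows also ran wide in shSMARCA4 replicate 2, from 486 (PCDHA13) to 1110 (PCDHA10). The highest over the lowest was 2.28 there and 2.73 in shKDM1A replicate 1. Within shKDM1A 1 library shows the wider spread, so it has no replicate check.

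The beta rows have few exon bases inside other genes. Yet 7.22% (PCDHB13) to 35.4% (PCDHB10) of a beta row's 50-base words also occur in another member, so reads may be split between rows. The beta rows lay on both sides of the controls. In shSMARCA4, 5 of 11 had both libraries above both controls, beside 25.6% of all rows, and 2 of 11 had both below, beside 25.4%. PCDHB5 had 474 and 390 normalized tags in shLUC, 781 and 686 in shSMARCA4, 564 and 414 in shKDM1A, 432 and 385 in shMAFK, and 486 and 350 in shE2F6. PCDHB16 had 230 and 254 in shLUC, 338 and 362 in shSMARCA4, 244 and 252 in shKDM1A, 223 and 220 in shMAFK, and 201 and 220 in shE2F6. In both rows the shSMARCA4 libraries were the 2 highest of the 10. The log2 change was 0.77 for PCDHB5 (limma, adjusted p = 0.101) and 0.53 for PCDHB16 (limma, adjusted p = 0.10). PCDHB12 went the other way, with 98 and 68 against 148 and 139 in shLUC (-0.81; limma, adjusted p = 0.302). Antisense genes overlap 14.7% of the exon bases of PCDHB5 and 16.3% of those of PCDHB16.

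PCDHB15 had 414 and 499 normalized tags in shLUC, 397 and 440 in shSMARCA4, 532 and 471 in shKDM1A, 516 and 584 in shMAFK, and 318 and 336 in shE2F6. Its group mean was highest in shMAFK and lowest in shE2F6, where its log2 change was -0.47 (limma, adjusted p = 0.885). PCDHB3 had 62 and 96 in shLUC, 72 and 92 in shSMARCA4, 139 and 102 in shKDM1A, 106 and 134 in shMAFK, and 59 and 64 in shE2F6. Its changes of 0.62 in shMAFK and 0.62 in shKDM1A did not pass (limma, adjusted p = 0.644 in shMAFK), and all 4 of those libraries lay above both controls. The summed beta value was 2403 and 2597 in shLUC, 3041 and 3044 in shSMARCA4, 3016 and 2595 in shKDM1A, 2439 and 2587 in shMAFK, and 2211 and 2143 in shE2F6. It was above both controls in shSMARCA4, below both in shE2F6, and overlapped them in shMAFK and shKDM1A.

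**Figure D4:**
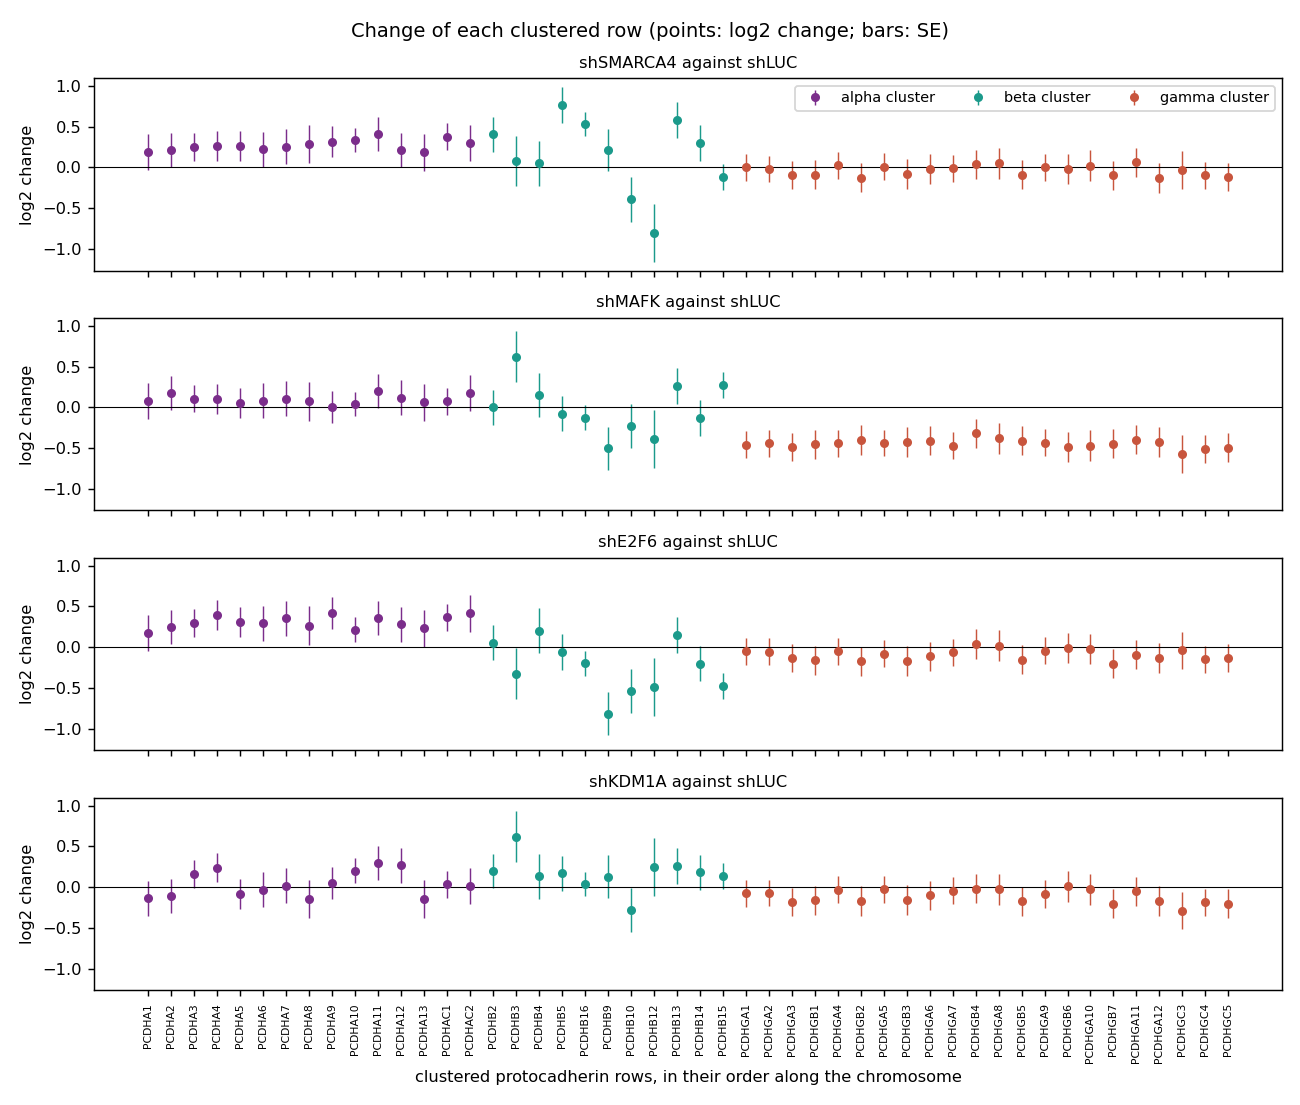
Log2 change of each clustered protocadherin against shLUC in each knockdown (points), with its standard error (bars), in the order of the rows along chromosome 5. The 22 gamma rows lie between -0.57 and -0.32 in shMAFK, the 15 alpha rows lie above 0 in shSMARCA4, shMAFK and shE2F6, and the beta rows scatter on both sides.

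How closely rows of a class followed each other was described by Pearson's r between pairs of rows over the 10 libraries. The median r was 0.92 over the 231 gamma pairs (0.61 to 0.998), 0.79 over the 105 alpha pairs and 0.14 over the 55 beta pairs. Rows of the non-clustered protocadherins had a median r of -0.16 over 28 pairs. The pairs share libraries, and those of the alpha and gamma clusters share exon bases as well.

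In shKDM1A, 0 of 69 members passed with limma, beside 0.0271% of all rows, which is 4 rows. At an unadjusted p under 0.05 there were 6 members, beside 11.5% of all rows, all outside the clusters. PCDH18, CDH13 and CDH6 were lower and PCDH11X, CDH11 and CDH4 were higher. CDH4 had 318 and 384 normalized tags against 257 and 242 in shLUC (log2 change 0.49; limma, adjusted p = 0.418). Without shKDM1A replicate 2, which leaves 1 library assumed to vary like the other groups, limma called 4 members, CDH11, CDH9, PCDH18 and PCDHGC3, beside 21.9% of all rows.

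The partners and relatives of the members were read from 7 lists. Of 11 catenins and armadillo partners, all in the table, 0 passed in any knockdown with limma. The share of all rows called was 4.18% in shSMARCA4 and at most 0.0271% in the other knockdowns. At an unadjusted p under 0.05 there were 1 of 11 in shSMARCA4 (16.3% of all rows) and 0 in shMAFK (8.77%). In shE2F6 there were 2 (5.09%), and in shKDM1A 2 (11.5%). CTNNB1, the beta-catenin that links cadherins to alpha-catenin and to Wnt signalling, had 7042 and 7211 normalized tags in shLUC and 6410 and 4808 in shSMARCA4 (log2 change -0.36; limma, adjusted p = 0.441). CTNNA1 (alpha-catenin) had log2 changes between -0.14 and 0.28 in the 4 knockdowns, and CTNND1 (p120-catenin), which keeps cadherins at the membrane, between -0.09 and 0.13. Neither passed. Of 10 nectins and junction scaffolds 8 were in the table, of 11 desmosomal genes 6, and of 8 proteases that cut cadherins 7, and 0 passed in any knockdown with limma. These 3 lists together gave between 0 and 2 genes per list and knockdown at an unadjusted p under 0.05, beside the same shares of all rows.

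Of 18 other genes of the cadherin superfamily 14 were in the table, and 0 passed with limma, beside 4.18% of all rows in shSMARCA4. In shSMARCA4, 7 of 14 had an unadjusted p under 0.05, beside 16.3% of all rows. FAT3, FAT4, CELSR1, CELSR3 and CDHR3, which are giant or cadherin-related surface proteins, had higher values, and DCHS2 and CLSTN2 lower ones. The median log2 change over the list was 0.18, against 0.01 over all rows. At the same limit there were 3 of 14 in shMAFK, beside 8.77% of all rows, 1 of 14 in shE2F6, beside 5.09%, and 4 of 14 in shKDM1A, beside 11.5%.

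Of 19 genes known to regulate E-cadherin or to mark the change from epithelial to mesenchymal cells 12 were in the table. VIM (vimentin, a mesenchymal filament protein) fell in shSMARCA4, with 1046 and 876 normalized tags against 3429 and 3110 in shLUC (log2 change -1.77; limma, adjusted p = 0.0011). It was the 1 gene of the list past the threshold in any knockdown, beside 4.18% of all rows in shSMARCA4. All 20 genes of the list of regulators of the protocadherin clusters, such as CTCF, the cohesin subunits and DNA methyltransferases, were in the table. CTCFL, a germline relative of CTCF, rose in shKDM1A with 1140 and 995 normalized tags against 96 and 82 (log2 change 3.57; limma, adjusted p = 0.000225). It had 252 and 284 in shMAFK and 151 and 131 in shE2F6, which did not pass (limma, adjusted p = 0.0619 and 0.853). The other 19 did not pass in any knockdown, beside 4.18% of all rows called in shSMARCA4 and 0.0271% in shKDM1A.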

How the data were processed

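RNA-seq of 10 libraries in 5 groups was read from the table of single libraries. The authors deposited a score per gene, whole numbers whose header reads as normalized tag counts. The submitters' processing notes name STAR, STARsolo and hg38, with no role. Counting, annotation and normalization are not given in the sources used here, and the depth is unknown. Columns not mapped to a sample numbered 0. Values were analysed as log2(value + 1), which understates changes of low rows, with limma 3.58.1 in R 4.3.3 (two-sided tests, eBayes with mean-variance trend, 1 fit of all 10 libraries, Benjamini-Hochberg adjustment over 14785 rows, threshold 0.05). Rows needed a mean of at least 10, which removed 0. The fit was tested on simulated data. Positions and exons came from GENCODE release 29, whose symbols equalled those of all 69 members. Tables were made with Python 3.11.15, pandas 2.3.3 and matplotlib 3.10.9.

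Members given in every library were CDH1, CDH2 and CDH3, members past the threshold, the largest rise and fall in each comparison and the 3 highest rows of each of 3 broad classes (all cadherins, non-clustered protocadherins, clustered protocadherins), and list genes were named if past the threshold, with 3 catenins always. PCDHB5, PCDHB15, PCDHB16, CDH6 and others outside that rule were chosen after their values were seen, as were the list genes named at an unadjusted p. The 11 lists were catenins, nectins and scaffolds, desmosomal genes, other superfamily genes, E-cadherin regulators, cluster regulators, shedding proteases, and markers of pluripotency, mesendoderm, neural ectoderm and trophoblast. The members and lists were chosen with earlier results of these data known. Alternatives covered the pseudocount, filter, scaling, variance model, libraries in the fit, replicate block and leaving out each library.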

Additional observations from a re-analysis of the deposited data

How the results depend on the processing

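The counts of members past the threshold depended on the variance model and on single libraries, and all values here are from limma. Shares in brackets are those of all rows called under the same setting. In shSMARCA4 the count of 4 (4.18%) became 10 with 1 weight per group (8.83%), 8 with only the 2 groups compared (6.22%), 7 without both shKDM1A libraries (7.86%), and 1 to 7 when 1 library was left out (0.602% to 7.84%). The 1 member left without a shLUC library or without shSMARCA4 replicate 1 was PCDH18. Among the knockdowns the count of 4 (6.64%) became 8 without the mean-variance trend (6.45%), 7 with group weights (10.4%), 11 without both shKDM1A libraries (14.3%), and 1 to 16 when 1 library was left out. The 16 were without shKDM1A replicate 2, where 35.9% of all rows were called. In shMAFK the count went from 0 to 4 with group weights (3.29%). In shKDM1A it was 0 to 4 when 1 library was left out, the 4 without shKDM1A replicate 2 (21.9%), and in shE2F6 it was 0 in every setting. CDH1, which never passed, changed sign in 3 comparisons when 1 library was left out. Its log2 change then ranged from -0.01 (without shLUC replicate 2) to 0.06 in shMAFK. In shE2F6 it ranged from -0.07 to 0.03, with 0.02 without shLUC replicate 1 and 0.03 without shE2F6 replicate 1. In shKDM1A it ranged from -0.2 to 0.15, with 0.01 without shLUC replicate 1 and 0.15 without shKDM1A replicate 1. CDH9 in shKDM1A passed without replicate 2 (-7.18, adjusted p = 0.0193). When 1 library was left out, the log2 ratio of the gamma sum to shLUC in shMAFK ranged from -0.5 to -0.38. That of the alpha sum ranged from 0.16 to 0.46 in shE2F6, from 0.14 to 0.42 in shSMARCA4 and from -0.06 to 0.25 in shMAFK. The gamma ratio ranged from -0.15 to 0.09 in shSMARCA4 and from -0.26 to 0.06 in shKDM1A, and the beta ratio in shMAFK from -0.05 to 0.06, so these changed sign. No scaling moved the median of all rows by more than 0.1. The alternative scalings could change little, because the totals were nearly equal and 80.3% of ranks already held the same value in every library. The effect of the authors' normalization was therefore hardly tested. Libraries with the same replicate number deviated with r from -0.05 to 0.337 over 10 pairs of groups. The 0.337 was that of shSMARCA4 with shE2F6, and the next highest was 0.106 for shLUC with shMAFK. The numbers were not taken as pairs in the main fit. With the replicate block the shSMARCA4 count was 5, that among knockdowns 4 (PCDHB5, PCDH10, PCDH11X and PCDH18), those of shMAFK, shE2F6 and shKDM1A 0, and CDH13 in shSMARCA4 did not pass (-1.22, adjusted p = 0.0561). Tests of low members such as CDH7 and CDH23 are limited by the unknown depth.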

Other observations

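A single factor per library would not change a ratio of genes, but a normalization by rank can. Here 80.3% of ranks hold the same value in every library. The ratio of CDH1 to CDH2 was 7.75 and 6.46 in shLUC, 5.33 and 8.03 in shSMARCA4, 8.15 and 8.66 in shKDM1A, 7.93 and 10.2 in shMAFK, and 8.99 and 8.51 in shE2F6. In shMAFK, shE2F6 and shKDM1A both libraries lay above both controls, and in shSMARCA4 they lay on either side. The ratio of PCDH10 to PCDH18 was 0.331 and 0.27 in shLUC, 5.71 and 2.74 in shSMARCA4, 1.13 and 0.475 in shKDM1A, 0.153 and 0.124 in shMAFK, and 0.341 and 0.295 in shE2F6. It was higher than in the controls in both libraries of shSMARCA4 and shKDM1A and lower in both of shMAFK. Both pairs of genes were chosen after their values were seen, and the ratios were not tested.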
